A study of Mus musculus with 20 samples.

Results

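Induced pluripotent stem (iPS) cells were compared with embryonic stem (ES) cells while both were grown in 2i medium, by the RNA of 4 of the 20 samples of a mouse series. Members were chosen by their labels alone, namely the 2 RNA libraries labelled as iPS cells in 2i and the 2 labelled as ES cells in 2i. The series holds 10 RNA libraries, with ES cells and iPS cells in serum and neural progenitor cells (NPC) as the other groups, and 10 libraries of chromosome conformation that are not analysed here. The ES cells were the male V6.5 line, of mixed 129SvJae and C57BL/6 background. The iPS cells were made from NPC, which had been grown as neurospheres from the whole brains of newborn Sox2-eGFP mice of the same mixed background, and no sex is given for them. Both kinds of cell received serum-free 2i medium with LIF, the GSK3 inhibitor CHIR99021 and the MEK inhibitor PD0325901, were kept on inactivated feeder fibroblasts, and were passaged on gelatin to remove the feeders before collection. Neither the number of iPS clones nor separate cultures for the replicates are stated, so the p-values below rest on a spread between libraries that may be technical. Line, Sox2-eGFP allele, clone and derivation by reprogramming change together between the groups and cannot be told apart. Reads from reprogramming transgenes, if present, would be counted with the cells' own Pou5f1, Sox2 and Klf4.

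In 2i medium, blocking MEK silences the ERK arm of FGF signalling and blocking GSK3 stabilises beta-catenin, while LIF acts through STAT3. Together these hold mouse pluripotent cells in a naive state that resembles the epiblast before implantation, marked by factors such as Esrrb, Klf2, Klf4 and Tcfcp2l1. Reprogrammed cells re-start the pluripotency network from a somatic state, and imprinted genes, germline genes and genes of the starting cell type are known as places where they can keep differences from ES cells.

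Reads assigned to transcript models numbered 15629093 and 14488815 in the ES 2i libraries, and 4903010 and 9622117 in iPS 2i replicates 1 and 2. The log2 levels correlated at 0.989 between the ES 2i replicates, at 0.984 between the iPS 2i replicates and at 0.956 to 0.969 between the groups, a description across models. Of the uniquely aligned reads, 65% fell outside every model in iPS 2i replicate 1, and 28.2% to 37.4% did so in the other 3 libraries. ES 2i replicate 1 stood apart in a few models, given below. The pluripotency markers were present in all 4 libraries: the 13 naive markers with a symbol summed to 3983 and 4162 CPM (read counts scaled to a common total of assigned reads) in ES 2i and to 4362 and 4429 CPM in iPS 2i. Dppa5a alone gave 1274 and 1345 CPM of these sums in ES 2i and 2135 and 2127 CPM in iPS 2i, and 6 of the 13 were called lower. Nes, an intermediate filament of neural stem cells, had 0.188 and 0.130 CPM in ES 2i and 0.410 and 0.507 CPM in iPS 2i, against 3.35 and 4.06 CPM in NPC.

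Of 11031 transcript models tested, 1514 (13.7%) were higher and 1280 (11.6%) lower in iPS 2i than in ES 2i cells at an adjusted p under 0.05, together 25.3% of all. These calls came from edgeR's quasi-likelihood test with Benjamini-Hochberg adjustment, fitted on all 10 RNA libraries, and this test gives every adjusted p in the text. At least 2-fold differences were called for 957 models (8.68%), 599 higher and 358 lower. Most differences were small, since the median absolute log2 change was 0.41 and the median change -0.01. Single libraries moved these counts: without ES 2i replicate 1, 742 models were higher and 727 lower, without iPS 2i replicate 1 the counts were 915 and 561, and without iPS 2i replicate 2 they were 961 and 1107. Without a filter on low counts, the calls were 1087 higher and 1382 lower, so that higher calls made up 44.0% instead of 54.2%.

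**Figure D1:**
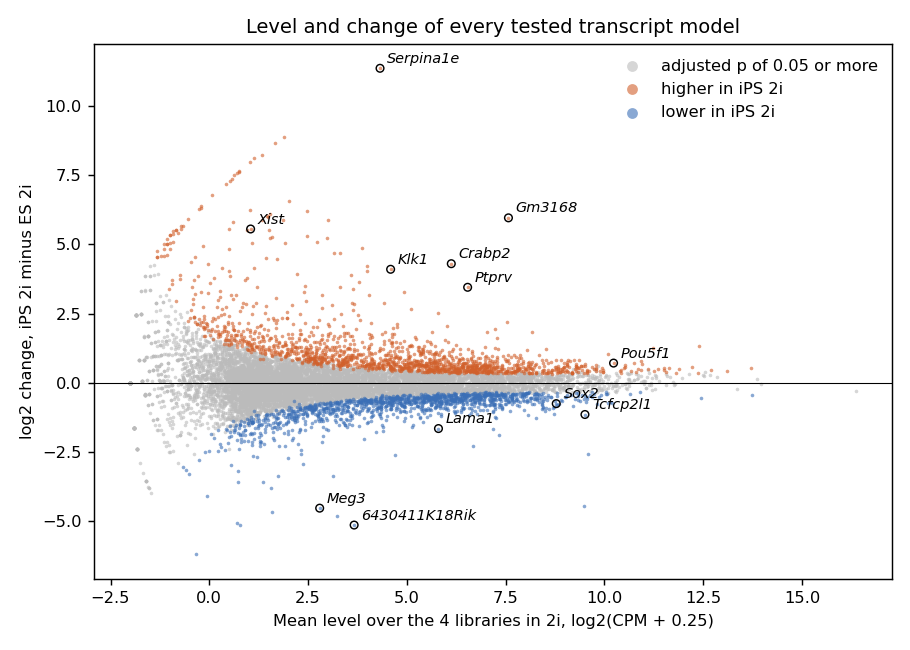
Each point is 1 of the 11031 tested transcript models, with its mean level over the 4 libraries in 2i on a log2 scale on the x axis and its log2 change on the y axis; orange and blue points had an adjusted p under 0.05. The 599 models at least 2-fold higher outnumber the 358 at least 2-fold lower, and Gm3168, Crabp2 and Klk1 lie far above the band while Meg3 and 6430411K18Rik lie far below it.

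Among genes whose log2 CPM averaged at least 3 in 2i, the largest increases were those of Gm3168, Crabp2 and Klk1. Some genes at lower levels had larger fitted changes than Gm3168, Col6a6 (6.19) among them, and Xist (5.55) had a larger one than Crabp2. Col6a6 and Xist are described below. Gm3168, a predicted gene at chr8:125949774-125958050 of mm9, had 6.08 and 5.97 CPM in ES 2i and 385 and 363 CPM in iPS 2i libraries, a log2 change of 5.95 ± 0.19 (SE, adjusted p = 3.05e-20). Crabp2, at chr3:87752615-87757294, encodes a cytoplasmic protein that carries retinoic acid to its nuclear receptors, and it went from 6.77 and 6.69 CPM to 126 and 138 CPM, a log2 change of 4.30 ± 0.16 (SE, adjusted p = 1.51e-18). Klk1, at chr7:51480807-51484987, encodes tissue kallikrein, a secreted serine protease, and had 2.51 and 2.73 CPM in ES 2i and 45.9 and 44.1 CPM in iPS 2i, a log2 change of 4.10 ± 0.18 (SE, adjusted p = 1.54e-16). In each of these genes the libraries of a group lay close together and the groups were far apart.

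Ptprv, a receptor-type tyrosine phosphatase, was next at that limit, with 13.7 and 17.4 CPM in ES 2i and 178 and 162 CPM in iPS 2i, a log2 change of 3.45 ± 0.16 (SE, adjusted p = 1.54e-16). The other members of the 12 genes with the largest increases at that limit changed by 2.52 to 3.29 on the log2 scale. They were Gcnt3, which makes branched mucin-type glycans, at 3.29, Cdhr1, a cadherin-related protein of photoreceptors, at 3.16, Ahnak2 at 2.88, Wdfy4 at 2.87, the laminin chain Lama4 at 2.84, Fam174b at 2.66, the GTPase-activating protein Arhgap31 at 2.64, and the LIM-domain protein Crip1 at 2.52. All 12 kept their call in every alternative run, and the ES 2i and iPS 2i libraries did not overlap in any of them, which the rule for naming them required.

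**Figure D2:**
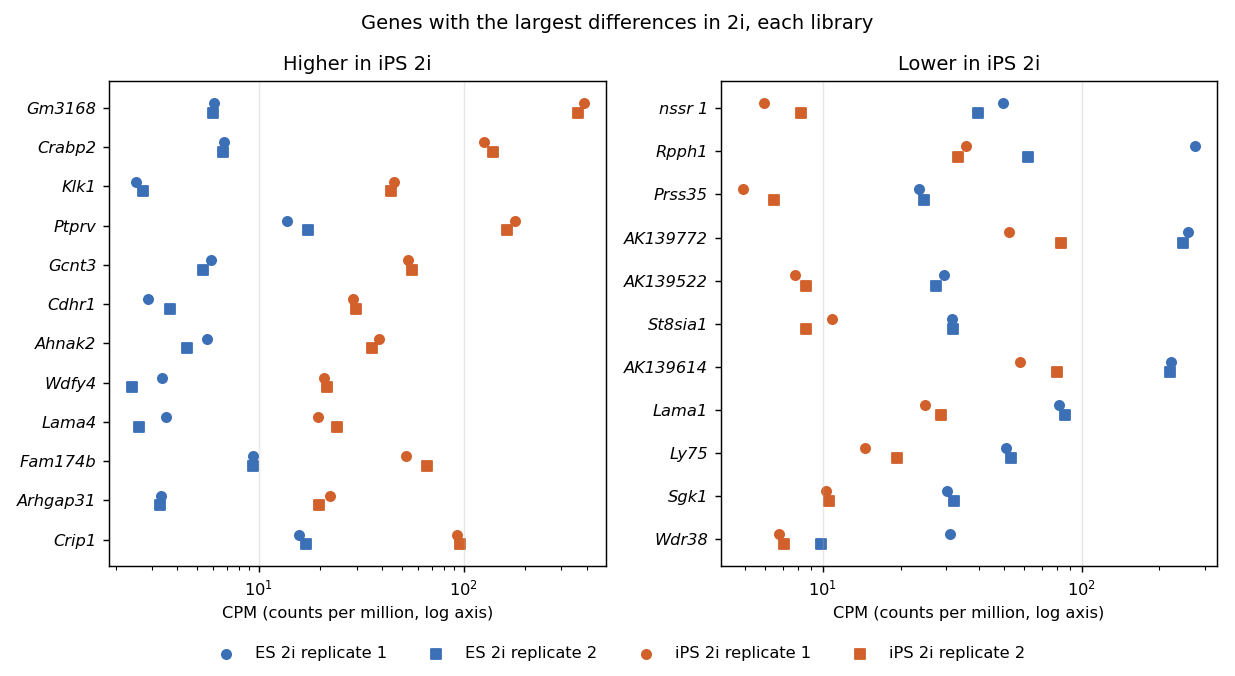
CPM of each of the 4 libraries on a log axis for the 12 genes with the largest increase (left) and 11 of the 12 with the largest decrease (right) that passed the test at a mean log2 CPM of at least 3 without overlap of the groups. On the left the orange iPS 2i points stand close together and far to the right of the ES 2i points; on the right, ES 2i replicate 1 stands apart in Rpph1 and Wdr38.

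Several genes had no read in either ES 2i library. Serpina1e, of the alpha-1 antitrypsin family of secreted protease inhibitors, had 43.5 and 35.5 CPM in the iPS 2i libraries, at least 206-fold higher than the level of 3 counts per library that a count of 0 allows. The Serpina1 genes are near-identical copies, so the assignment of these reads to Serpina1e is uncertain. Gpr37, an orphan receptor of the nervous system, reached 6.35 and 7.41 CPM, at least 36.0-fold higher than that floor. Both were chosen after their values were seen, and these bounds cover counting error only. The serum iPS libraries had 210.3 and 201 CPM of Serpina1e and the NPC libraries no read of it.

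Promoter sequence is shown for 3 of the genes with large increases and for the imprinted gene Meg3, described below, so that genes with opposite changes can be set side by side. Each run holds 250 bases before to 50 bases after the annotated start from RefSeq on GRCm38.p6, which is not the build of the counts, 5′ to 3′ on the gene's own strand. Capitals mark matches on either strand to the motifs TATAAA (the TATA box core) or GGGCGG (a GC box), which may overlap each other.
Klk1 (chr7:44225110-44225409, + strand): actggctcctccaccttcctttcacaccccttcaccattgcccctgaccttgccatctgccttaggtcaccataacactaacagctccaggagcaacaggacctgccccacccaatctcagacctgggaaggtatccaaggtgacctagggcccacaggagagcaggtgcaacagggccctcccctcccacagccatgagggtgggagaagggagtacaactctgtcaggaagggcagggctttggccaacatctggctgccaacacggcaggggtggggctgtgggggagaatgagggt
Aldh1a2 (chr9:71215539-71215838, + strand): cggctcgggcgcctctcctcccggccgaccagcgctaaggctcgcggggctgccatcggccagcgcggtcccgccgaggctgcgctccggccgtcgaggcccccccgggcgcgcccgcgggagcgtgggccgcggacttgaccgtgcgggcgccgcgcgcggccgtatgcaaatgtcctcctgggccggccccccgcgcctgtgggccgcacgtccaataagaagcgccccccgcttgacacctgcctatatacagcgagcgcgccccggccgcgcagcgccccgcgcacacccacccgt
Serpina1e (chr12:103956848-103957147, - strand): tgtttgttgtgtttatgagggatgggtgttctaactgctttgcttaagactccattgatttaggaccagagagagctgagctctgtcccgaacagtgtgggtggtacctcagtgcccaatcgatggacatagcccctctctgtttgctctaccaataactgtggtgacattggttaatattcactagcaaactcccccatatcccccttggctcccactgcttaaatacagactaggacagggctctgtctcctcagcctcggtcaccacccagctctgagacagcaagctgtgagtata
Meg3 (chr12:109540746-109541045, + strand): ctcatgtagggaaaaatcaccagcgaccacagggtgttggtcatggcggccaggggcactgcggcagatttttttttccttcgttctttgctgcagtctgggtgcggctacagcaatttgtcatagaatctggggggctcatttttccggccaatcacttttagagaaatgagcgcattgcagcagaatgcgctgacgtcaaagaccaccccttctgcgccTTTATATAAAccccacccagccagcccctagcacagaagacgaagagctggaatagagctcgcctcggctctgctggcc
Of the 4 windows, only that of Meg3 held TATAAA, with 2 overlapping matches, and none held GGGCGG. The window of Aldh1a2 had a GC content of 78.0% with 50 CpG dinucleotides, those of Klk1 and Serpina1e 1 and 3 CpG dinucleotides, and that of Meg3 13. Over all 27025 promoters of the table, 14.2% held TATAAA and 35.9% GGGCGG. Promoters of the genes higher in iPS 2i did not stand out from all tested genes in these letters: 7.74% of 982 with a promoter held TATAAA and 70.6% GGGCGG, against 6.76% and 67.3% of 5921.

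The decreases named next were chosen at the same limit on level, a mean log2 CPM of at least 3, which the lower-expressed Meg3 and 6430411K18Rik, described below, do not reach. Lama1, at chr17:68046605-68171985, encodes a chain of the laminin that epiblast and primitive endoderm lay down, and it went from 82.1 and 86.5 CPM in ES 2i to 24.8 and 28.5 CPM in iPS 2i, a log2 change of -1.65 ± 0.15 (SE, adjusted p = 1.14e-09). St8sia1, the ganglioside GD3 synthase, had 31.6 and 31.9 CPM in ES 2i and 10.9 and 8.63 CPM in iPS 2i, a log2 change of -1.73 ± 0.19 (SE, adjusted p = 4.72e-08). The kinase gene Sgk1 had 30.1 and 32.2 CPM in ES 2i and 10.2 and 10.6 CPM in iPS 2i, a log2 change of -1.58 ± 0.22 (SE, adjusted p = 3.23e-06). In these 3 genes every iPS 2i library lay below every ES 2i library, which the rule for naming them required.

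The endocytic receptor gene Ly75 (log2 change -1.60) and the protease-like gene Prss35 (-2.03) also fell. So did a model named nssr 1 (-2.61) and 3 unannotated transcripts, AK139772 (-1.88), AK139522 (-1.77) and AK139614 (-1.66). AK139522 and AK139614 are neighbours on chromosome 3, at chr3:129158180-129159048 and chr3:129159146-129161526, so they may not be independent measurements. In ES cells in serum AK139614 had 17.6 and 12.6 CPM, against 222 and 220.3 CPM in ES 2i and 58.0 and 80.4 CPM in iPS 2i.

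ES 2i replicate 1 decided the call for 2 of these 12 genes with the largest decreases. Rpph1, the RNA component of RNase P, had 274 and 62.3 CPM in ES 2i replicates 1 and 2 and 35.7 and 33.3 CPM in iPS 2i, and Wdr38 had 31.0 and 9.87 CPM and 6.76 and 7.10 CPM. Both lost the call without ES 2i replicate 1. In the same way the mitochondrial model GU332589 had 2659 and 75.6 CPM in the ES 2i replicates, and Lars2, a mitochondrial leucyl-tRNA synthetase gene, 2489.5 and 121 CPM. Lars2 was lower in iPS 2i by the main test (log2 change -2.56) and had a log2 change of 0.81 with no call without that library. Its call was also lost without iPS 2i replicate 2 and with DESeq2.

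The factors used for reprogramming did not move together. Pou5f1, the POU factor at the centre of the pluripotency network, had 848 and 974 CPM in ES 2i and 1479 and 1507 CPM in iPS 2i, a log2 change of 0.71 ± 0.14 (SE, adjusted p = 2.71e-04). Sox2, its binding partner, had 627 and 476 CPM in ES 2i and 329 and 327 CPM in iPS 2i, a log2 change of -0.75 ± 0.14 (SE, adjusted p = 1.18e-04). Klf4 had 161 and 156 CPM and 149.9 and 152 CPM, and its log2 change of -0.07 ± 0.13 (SE, adjusted p = 0.727) did not pass the test. Both iPS 2i libraries lay above the ES 2i libraries for Pou5f1 and below them for Sox2 and Klf4, for Klf4 by a few percent only. With 2 libraries per group, groups thus also lay apart in a gene that did not pass the test. No tested model carried the symbol Nanog or Myc.

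Among the naive factors, 6 of 13 tested members fell and 1 rose, with a median log2 change of -0.48. Over all 9372 symbols tested 12.2% were lower, 15.3% higher and the median was 0.01, the background for each gene list below. Tcfcp2l1, a LIF target that keeps ES cells naive, went from 1004 and 999.6 CPM to 403 and 504 CPM, a log2 change of -1.14 ± 0.16 (SE, adjusted p = 4.19e-06). The factor Klf2 had 114 and 131 CPM in ES 2i and 78.9 and 67.7 CPM in iPS 2i, a log2 change of -0.75 ± 0.15 (SE, adjusted p = 3.50e-04). Klf5 (-0.84), Esrrb (-1.10), Dppa3 (-0.74) and Zfp57 (-0.48) were the other 4 that fell, all at lower levels. Dppa5a, an RNA-binding protein of early embryos, rose from 1274 and 1345 CPM to 2135 and 2127 CPM, a log2 change of 0.70 ± 0.13 (SE, adjusted p = 1.16e-04). Without ES 2i replicate 1 only 2 of these 13 genes were lower, without iPS 2i replicate 1 only 3, and DESeq2 also called 3.

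Of 14 tested core pluripotency genes, 4 fell (28.6%) and 2 rose (14.3%, near the 15.3% over all symbols), with a median of -0.28. Besides Sox2, Dppa4 fell (10.6 and 10.8 CPM to 4.10 and 4.67 CPM, log2 change -1.27), as did Dppa2 (-0.45) and Trim71 (-0.47). Utf1, a chromatin-bound protein of undifferentiated cells, rose besides Pou5f1, from 179.6 and 214 CPM to 308 and 272 CPM (0.56), and lost the call without ES 2i replicate 1 or iPS 2i replicate 1. Without iPS 2i replicate 1 only 2 of the 14 were lower, and 1 was higher. Fgf4, Gdf3, Lin28a and Foxd3 differed by at most 0.21 on the log2 scale and did not pass the test.

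Of 12 tested genes of the formative epiblast, the state after the naive one, 3 rose. Lefty1, an inhibitor of Nodal that is itself a Nodal target, had 25.4 and 33.9 CPM in ES 2i and 72.0 and 78.3 CPM in iPS 2i, a log2 change of 1.34 ± 0.14 (SE, adjusted p = 3.99e-08). Its neighbour Lefty2 (0.45) and Pou3f1 (0.49) rose less and lost the call in 3 and 4 of the 4 fits that leave out a library in 2i. Zic2 fell (-0.50), a call lost without ES 2i replicate 2 or iPS 2i replicate 1. Without ES 2i replicate 1, ES 2i replicate 2 or iPS 2i replicate 2, only Lefty1 remained called higher.

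Imprinted genes changed in both directions, 6 of 17 tested lower and 4 higher (median -0.16). Meg3, the maternally expressed non-coding RNA of the Dlk1-Dio3 domain on chromosome 12, at chr12:110783608-110806804 of mm9, had 15.1 and 10.5 CPM in ES 2i and 0.615 and 0.507 CPM in iPS 2i, a log2 change of -4.52 ± 0.40 (SE, adjusted p = 8.86e-10). Its neighbour 6430411K18Rik, antisense to Rtl1 in the same domain, at chr12:110829747-110831125, had 24.5 and 24.0 CPM in ES 2i and 0.615 and 0.710 CPM in iPS 2i, a log2 change of -5.13 ± 0.33 (SE, adjusted p = 5.67e-13). It was chosen after its values were seen, and without a stated strand setting its reads cannot be told apart from those of Rtl1. All ES libraries lay far above all iPS libraries for both transcripts, also in serum, where Meg3 had 15.3 and 15.0 CPM in ES and 1.03 and 0.340 CPM in iPS cells.

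Dio3, the gene at the other end of that domain, had 2.63 and 3.70 CPM in ES 2i and 4.51 and 3.35 CPM in iPS 2i, with a log2 change of 0.27 that did not pass the test. Grb10, an adaptor that restrains growth factor receptors, fell (5.01 and 4.22 CPM to 1.02 and 1.12 CPM, log2 change -2.08). Also lower were Mest (-2.09) and Plagl1 (-1.46), both at under 4 CPM, Peg10, a retrotransposon-derived placental gene (-0.67), and Igf2r, the receptor that clears IGF2 (-0.65, a call lost without iPS 2i replicate 1). Peg13 (0.99), Mkrn3 (0.83), Phlda2 (0.69) and Ndn (0.59) rose. Without ES 2i replicate 1 or iPS 2i replicate 1 the 4 higher calls fell to 2. Of 11 genes that write, erase or guard DNA methylation, Zfp57, Dppa3 and Gadd45a fell and Trim28 rose (0.37), but without ES 2i replicate 1 or without iPS 2i replicate 1 the 3 lower calls were lost, as they were with DESeq2. The higher call of Trim28 was lost without those 2 libraries too, without iPS 2i replicate 2 and without the low-count filter. Dnmt1, Tet1 and Tet2 did not pass the test.

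Some genes of the starting NPC were higher in iPS 2i than in ES 2i cells, and not all of them were so in serum. Of 15 tested neural progenitor genes, 7 rose and 2 fell, with a median log2 change of 0.58. Olig2, a bHLH factor of oligodendrocyte and motor neuron precursors, had 17.7 and 18.0 CPM in ES 2i and 29.7 and 27.7 CPM in iPS 2i, a log2 change of 0.68 ± 0.15 (SE, adjusted p = 0.00107), and its neighbour Olig1 6.45 and 9.22 CPM and 18.0 and 13.9 CPM, a log2 change of 1.00 ± 0.19 (SE, adjusted p = 2.12e-04). Egfr, the receptor that drives neurosphere growth, went from 3.13 and 2.73 CPM to 13.3 and 15.6 CPM, a log2 change of 2.31 ± 0.23 (SE, adjusted p = 5.79e-09). ES cells in serum had 31.1 and 34.8 CPM of Olig2, above both iPS 2i libraries. They had 16.95 and 20.01 CPM of Olig1, which overlapped the iPS 2i libraries, and 6.17 and 8.16 CPM of Egfr, below both. The higher levels of Olig1 and Olig2 thus hold against ES cells in 2i, not against ES cells in serum. The ES 2i and iPS 2i groups did not overlap in these 3 genes, nor in Nes, which did not pass the test. With 2 libraries per group, a lack of overlap says little by itself.

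Sox1 (0.62), the proteoglycan gene Ncan (0.80), Vim (0.52) and Notch1 (0.58) were the other 4 that rose, while Sox21 (-1.37) and the glutamate transporter gene Slc1a3 (-2.22) fell. The higher call of Vim was lost without iPS 2i replicate 2, and that of Notch1 without ES 2i replicate 1 or iPS 2i replicate 1. The 2 lower calls were lost without iPS 2i replicate 2, and 1 remained without ES 2i replicate 1 or iPS 2i replicate 1. NPC themselves had 149.9 and 124 CPM of Egfr and 1601 and 1885 CPM of Olig2. In serum, iPS cells were lower than ES cells in Olig2 (log2 change -1.11) and higher in Egfr (1.23), and Olig1 (-0.07) did not pass the test. In bulk RNA, fewer cells of a type and less RNA per cell cannot be told apart.

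Fibroblast genes were higher in iPS 2i cells as a group, 8 of 12 tested, with a median of 0.92, and the other 4 did not pass the test. The 13 fibroblast genes with a symbol summed to 496 and 509 CPM in ES 2i and to 1005 and 1027 CPM in iPS 2i. Col3a1, a fibrillar collagen, had 116 and 116 CPM in ES 2i and 232 and 226 CPM in iPS 2i (0.98), and the smooth muscle actin gene Acta2 158 and 161 CPM and 356 and 376 CPM (1.20). Postn, Lum and Dcn, which fibroblasts secrete, had no model with a symbol. Tagln (1.15), Col1a1 (0.93), Col1a2 (0.61), Thy1 (0.92), Col6a1 (1.15) and S100a4 (2.05) rose as well. Feeder fibroblasts were part of both cultures until their removal, and the part of these sums in the results on matrix genes was not tested.

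Of 6 tested trophoblast genes, 5 rose (median 1.15), and 3 did so without ES 2i replicate 1, without iPS 2i replicate 1 and with DESeq2. Ascl2, a placental bHLH factor, had 2.13 and 2.79 CPM in ES 2i and 12.5 and 8.22 CPM in iPS 2i, a log2 change of 2.03 ± 0.30 (SE, adjusted p = 7.08e-06), and the simple-epithelium keratin gene Krt19 1.82 and 2.01 CPM and 10.0 and 14.0 CPM, 2.69 ± 0.24 (SE, adjusted p = 8.84e-10). Krt8 (0.75), Krt18 (0.46) and Krt7 (1.41) rose too, the call of Krt7 being lost without either ES 2i library or iPS 2i replicate 1, and Cdx2, the factor that defines trophoblast, stayed between 0.188 and 0.615 CPM in all 4 libraries and did not pass the test. Eomes and Elf5 had no model with a symbol here. Krt13, a keratin of stratified mucosa, rose from 0.376 and 0.909 CPM to 4.92 and 5.78 CPM (3.06), which made 5 of 9 keratins higher, or 3 without iPS 2i replicate 1.

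Primitive endoderm genes were mixed, with 2 of 7 tested higher and 2 lower, and the latter were the laminin genes Lama1 and Lamc1. Leaving out either ES 2i library or iPS 2i replicate 2 left 1 of the higher calls. The defining factors Gata6 and Sox7 had 1.22 to 2.88 CPM and did not pass the test. Of 10 tested Hox genes, Hoxa9 (0.125 and 0.195 CPM to 1.84 and 1.62 CPM, log2 change 3.31), Hoxa4 (1.59) and Hoxb13 (1.30) rose. All of these stayed under 3 CPM, and without ES 2i replicate 1 or iPS 2i replicate 2 only 1 was called. Of 9 tested germline genes, Sohlh2 (-0.81) and Syce1 (-0.57) fell and Tex19.1 rose (0.46), and Sohlh2 alone kept its call without each library in turn.

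**Figure D3:**
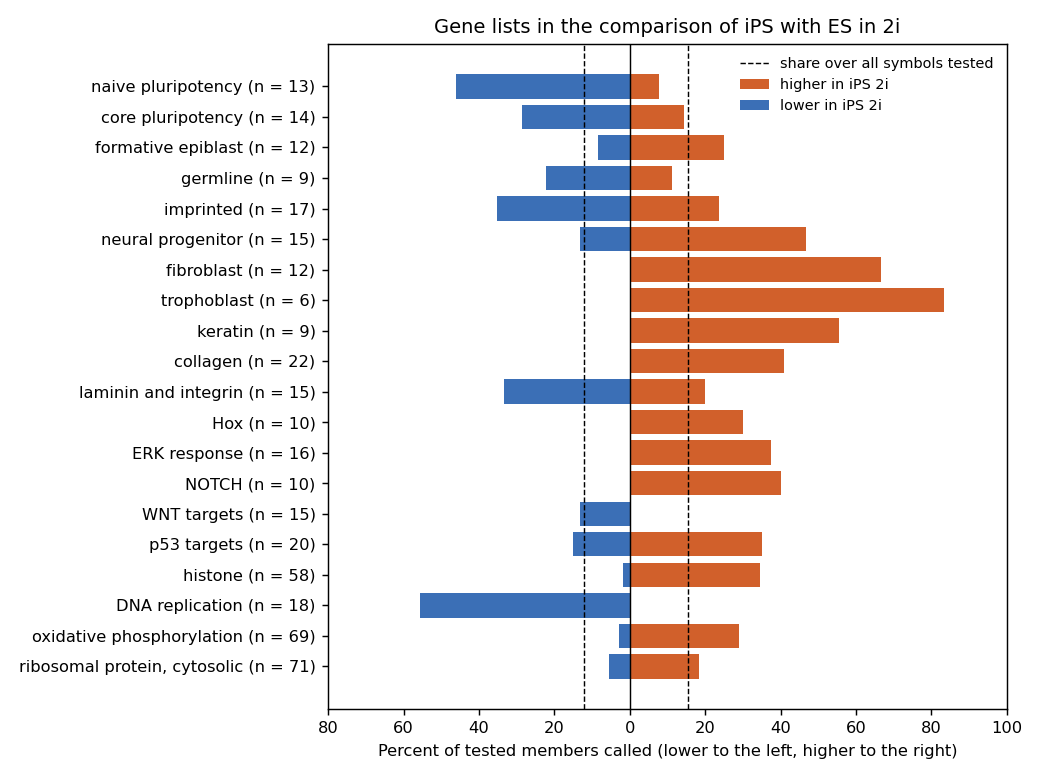
Percent of the tested members of 20 gene lists called higher (right, orange) or lower (left, blue) in iPS 2i than in ES 2i cells; dashed lines give the shares over all 9372 symbols tested, 15.3% higher and 12.2% lower, and n is the number of tested members. Trophoblast, fibroblast and keratin genes have the longest bars to the right, and DNA replication and naive pluripotency genes the longest to the left.

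Collagen genes rose where they passed the test, and laminin and integrin genes changed in both directions. The summed CPM of the fibroblast genes, 496 and 509 in ES 2i and 1005 and 1027 in iPS 2i, moved with them, and its part was not tested. Of 22 tested collagen genes, 9 rose (median 0.76). Col6a6 had 0.0627 and 0.195 CPM in ES 2i and 10.7 and 10.2 CPM in iPS 2i. Its fitted log2 change of 6.19 rests on a handful of ES 2i reads. Col4a2, a basement membrane collagen, rose from 26.1 and 25.4 CPM to 57.0 and 54.1 CPM (1.11).

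Of 15 laminin and integrin genes, 3 rose and 5 fell. Lama4 (3.51 and 2.60 CPM to 19.5 and 24.0 CPM), a laminin chain of vessels and mesenchyme, Lama3 (1.87) and Lama5 (0.58) rose, whereas Lama1, Lamc1 (-0.70), Itga9 (-1.02) and Itgb1 (-1.39) were among those that fell. Cdh1, the E-cadherin that holds pluripotent colonies together, fell from 909 and 902 CPM to 581 and 613 CPM, a log2 change of -0.60 ± 0.12 (SE, adjusted p = 5.91e-04). Cldn6, a tight junction claudin, rose from 8.58 and 10.1 CPM to 35.7 and 31.3 CPM, a log2 change of 1.83 ± 0.17 (SE, adjusted p = 1.76e-09). Of 12 cadherin and mesenchymal transition genes 5 rose and 2 fell. Those higher were 3 without ES 2i replicate 1, 3 without ES 2i replicate 2 and 2 without iPS 2i replicate 2.

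Of the pathways that the inhibitors act on, 6 of 16 tested ERK response genes rose and the other 10 did not pass the test (median 0.11). Dusp4, a phosphatase that switches ERK off, had 21.8 and 25.5 CPM in ES 2i and 69.5 and 64.5 CPM in iPS 2i, a log2 change of 1.50 ± 0.14 (SE, adjusted p = 1.70e-09). Junb, an AP-1 subunit, had 8.33 and 7.47 CPM and 24.8 and 27.0 CPM, a log2 change of 1.72 ± 0.19 (SE, adjusted p = 3.46e-08). Fosl1 (1.43), Ier3 (0.78), Fos (0.76) and Dusp5 (0.59) rose too, 3 of the 6 being called without ES 2i replicate 1. Fosl1 lost its call without ES 2i replicate 1 or iPS 2i replicate 1, and Ier3 without iPS 2i replicate 2. The most direct readouts of the pathway in ES cells, Dusp6 (-0.15), Spry2 (-0.31), Spry4 (-0.10) and Egr1 (0.64), did not pass the test.

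Of 15 WNT target genes 2 fell (13.3%, near the 12.2% over all symbols), and the list's median was 0.01. Notum, an enzyme that inactivates WNT proteins, fell from 19.4 and 28.0 CPM to 11.3 and 9.64 CPM, a log2 change of -1.20 ± 0.23 (SE, adjusted p = 2.14e-04), and Axin2, a scaffold of the beta-catenin destruction complex, from 10.1 and 12.7 CPM to 6.76 and 7.20 CPM (-0.70). Axin2 lost its call in 3 of the 4 fits without a library in 2i and with DESeq2. The other 13 did not pass the test. Of 8 LIF and STAT3 genes, Pim3 (0.72), Junb and Socs3 (0.43, a call lost without ES 2i replicate 1 or iPS 2i replicate 1) rose, and Tcfcp2l1 and the receptor subunit gene Il6st (-0.44) fell, with only 1 lower call without ES 2i replicate 2 or iPS 2i replicate 1.

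In the BMP pathway, 3 of 14 genes rose (21.4%) and 1 fell (7.14%), against 15.3% and 12.2% over all symbols. Id1, an inhibitor of bHLH factors, had 24.0 and 26.5 CPM in ES 2i and 68.7 and 71.3 CPM in iPS 2i, a log2 change of 1.47 ± 0.14 (SE, adjusted p = 1.54e-09). Id3 went the other way, from 95.2 and 113 CPM to 68.7 and 75.1 CPM (-0.53), and lost the call without ES 2i replicate 2 or iPS 2i replicate 1. The BMP antagonist gene Grem1 (0.188 and 0.325 CPM to 2.66 and 2.23 CPM) and the homeobox gene Msx1 (0.689 and 0.454 CPM to 2.46 and 3.86 CPM) rose at low levels.

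Of 12 TGF-beta and Nodal genes 3 rose, Lefty1 and Lefty2 among them, and Nodal itself, at 164 and 189 CPM in ES 2i and 213 and 224 CPM in iPS 2i, had an adjusted p of 0.0773. Of 10 NOTCH genes, the ligand genes Jag2 (12.3 and 15.5 CPM to 37.1 and 39.9 CPM, log2 change 1.47) and Dll1 (1.24) and the receptor genes Notch3 (24.5 and 30.9 CPM to 59.7 and 53.5 CPM, 1.02) and Notch1 rose. The target genes Hes1 (-0.13), Hey1 (0.25) and Nrarp (0.52) did not pass the test. Without iPS 2i replicate 1 only 2 of the 4 were called.

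Of 10 retinoic acid genes, Crabp2 and Aldh1a2 rose (20%) and Crabp1 fell (10%), against 15.3% and 12.2% over all symbols. Aldh1a2, which makes retinoic acid, went from 3.95 and 4.35 CPM to 20.9 and 24.2 CPM, a log2 change of 2.45 ± 0.20 (SE, adjusted p = 1.78e-10). Crabp1, a relative of Crabp2, fell from 28.4 and 33.0 CPM to 20.5 and 15.3 CPM (-0.81), a call lost without iPS 2i replicate 2. Cyp26a1, the target gene that degrades retinoic acid, stayed between 0.627 and 1.64 CPM and did not pass the test.

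Genes of DNA replication were lower as a group, 10 of 18 tested, with a median of -0.46 and no pass among the other 8. Pcna, the sliding clamp of the replication fork, had 1169.7 and 1079 CPM in ES 2i and 661 and 673 CPM in iPS 2i, a log2 change of -0.75 ± 0.13 (SE, adjusted p = 5.10e-05). Mcm4, a helicase subunit, had 528 and 489 CPM in ES 2i and 229 and 304 CPM in iPS 2i, a log2 change of -0.93 ± 0.14 (SE, adjusted p = 1.32e-05). Rrm2 (-0.57), a subunit of the enzyme that makes deoxynucleotides, fell too, whereas the other helicase genes Mcm2 (0.04) and Mcm7 (0.14) did not pass the test. Without iPS 2i replicate 1 only 4 of the 18 were lower. Of 21 cell cycle genes 3 rose (14.3%, near the 15.3% over all symbols) and 1 fell, the latter being Ccna2 (554 and 491 CPM to 313 and 349.9 CPM, -0.65), and the 3 higher calls were lost without ES 2i replicate 1 and without iPS 2i replicate 1.

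Of 20 p53 target genes, 7 rose and 3 fell (median 0.42), and 7 were also higher in each fit without 1 library in 2i. Phlda3, a small PH-domain protein, had 82.6 and 94.8 CPM in ES 2i and 219 and 202 CPM in iPS 2i, a log2 change of 1.25 ± 0.14 (SE, adjusted p = 7.10e-08). The membrane protein gene Perp (52.3 and 44.9 CPM to 112 and 115 CPM, 1.23), the apoptosis gene Bbc3 (1.18), the stress sensor gene Sesn2 (0.99), Btg2 (0.90), Plk2 (0.67) and Fas (2.73, at up to 1.22 CPM) also rose. Cdkn1a (0.52) and Mdm2 (0.18), the best known targets, did not pass the test. Pmaip1 (-0.70), Sesn1 (-0.63) and Gadd45a fell, and all 3 calls were lost without ES 2i replicate 1 and likewise without iPS 2i replicate 1.

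Of 14 genes of chromatin architecture, 4 fell and 1 rose. Lmna, the A-type lamin of differentiated nuclei, went from 25.9 and 27.2 CPM to 57.6 and 59.1 CPM, a log2 change of 1.14 ± 0.14 (SE, adjusted p = 4.26e-07). The B-type lamin gene Lmnb1 (637 and 584 CPM to 453 and 456 CPM, -0.43), the lamin B receptor gene Lbr (375 and 373 CPM to 204 and 236 CPM, -0.77), the cohesin subunit gene Rad21 (484 and 429 CPM to 208 and 283 CPM, -0.89) and Yy1 (-0.45) fell, and 2 of these were called without iPS 2i replicate 1. Ctcf (-0.48, at up to 4.14 CPM) and the cohesin genes Smc1a (-0.19) and Smc3 (-0.03) did not pass the test. Of 13 Polycomb genes 2 rose and 2 fell, 15.4% each way, near the 15.3% higher and 12.2% lower over all symbols tested. Cbx8 rose (2.07 and 0.909 CPM to 6.97 and 6.29 CPM, 2.12) with Ring1 (0.48), and Rybp (-0.80) and Cbx6 (-0.73) fell. Ring1 lost its call without any 1 of the 4 libraries and Cbx6 without iPS 2i replicate 1.

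Histone genes, many of which are near-identical copies so that their reads are uncertain, were higher in 20 of 58 tested (median 0.39). This count rested on single libraries: it was 4 without ES 2i replicate 1, 4 without iPS 2i replicate 1, 25 without ES 2i replicate 2 and 34 without iPS 2i replicate 2. Oxidative phosphorylation genes were higher in 20 of 69 and lower in 2 (median 0.21), for example Ndufv1 of complex I at 375 and 441 CPM and 661 and 632 CPM (0.66), with 6, 5 and 12 higher without ES 2i replicate 1, iPS 2i replicate 1 and iPS 2i replicate 2. Of 16 glycolysis genes 4 rose, led by Tpi1 (364 and 417 CPM to 699 and 685 CPM, 0.83), with 1 higher without ES 2i replicate 1 and 2 without iPS 2i replicate 1.

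Of 16 amino acid response genes 6 rose and 2 fell, with 2 and 3 higher without the same 2 libraries. Slc7a11, the cystine transporter gene, rose at a low level (0.627 and 0.325 CPM to 3.48 and 3.25 CPM), while the mitochondrial folate enzyme gene Mthfd2 fell (-0.65), a call lost without iPS 2i replicate 1. Of 71 cytosolic ribosomal protein genes 13 (18.3%) were higher and 4 (5.63%) lower, against 15.3% and 12.2% over all symbols tested (median 0.05). The 13 became 3 without ES 2i replicate 1 and 1 without iPS 2i replicate 1, and the 4 became 1 without any of ES 2i replicate 1, iPS 2i replicate 1 and iPS 2i replicate 2.

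X-linked and Y-linked genes were read because the sex of the iPS cells is not given. Xist, the RNA that coats the inactive X chromosome in female cells, had 0.125 and 0 CPM in ES 2i and 3.07 and 4.06 CPM in iPS 2i, a ratio of pooled counts of 58.5 with a 95% counting interval of 15.5 to 496 and an adjusted p of 1.60e-07. Reads of Xist and of its antisense partner Tsix may not have been told apart, since the strand setting is not given in the sources used here. Eif2s3y, on the Y chromosome, was present in both groups, at 9.34 and 6.95 CPM and 12.1 and 13.6 CPM, with a log2 change of 0.67 ± 0.23 (SE, adjusted p = 0.0343) that was lost without each of 3 of the 4 libraries, ES 2i replicate 1 being the exception. Of 305 X-linked models 25 were higher and 54 lower, with a median of -0.21, and the share lower went from 17.7% to 6.73% without ES 2i replicate 1, to 6.12% without iPS 2i replicate 1 and to 11.7% without iPS 2i replicate 2.

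Changes were not spread evenly over the chromosomes. Of the X-linked models above, 8.20% were higher and 17.7% lower, against 13.7% and 11.6% over all models. On chromosome 8, 142 of 587 tested models (24.2%) were lower and 33 higher, with a median log2 change of -0.30, against 11.6% lower and a median of -0.01 over all models. Chromosome 8 took up 5.31% and 5.74% of the reads of named models in ES 2i and 4.82% and 4.79% in iPS 2i, and 4.91% and 5.18% in ES cells in serum. Chromosomes 17 and 7 had medians of 0.18 each, with 113 of 541 (20.9%) and 163 of 809 (20.1%) models higher, against 13.7% over all models. Those shares were 8.19% and 8.95% without ES 2i replicate 1, 9.79% and 10.1% without iPS 2i replicate 1, and 12.5% and 12.7% without iPS 2i replicate 2. The chromosome 8 median stayed between -0.36 and -0.27 in every alternative run, while its share of lower calls was 13.1% without iPS 2i replicate 1. In serum the same contrast gave a chromosome 8 median of -0.18, and ES cells in 2i minus ES cells in serum one of 0.12. These are descriptions with no test of a whole chromosome.

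**Figure D4:**
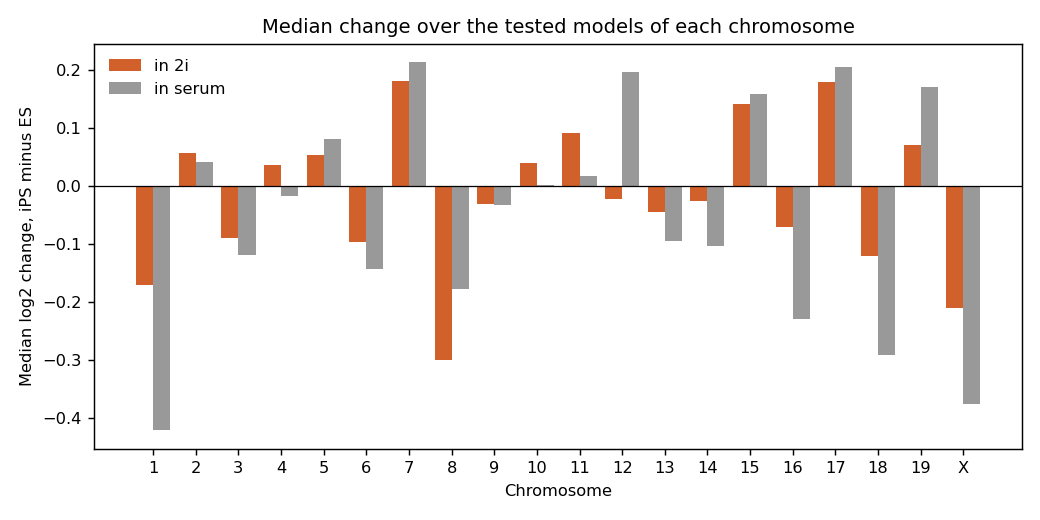
Median log2 change, iPS minus ES, over the tested models of each autosome and the X chromosome, in 2i (orange) and in serum (grey). In 2i the lowest bar is that of chromosome 8 at -0.30, and in serum that of chromosome 1 at -0.42.

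The same contrast in serum shares no library with that in 2i, and setting them side by side asked how much of the difference between iPS and ES cells depends on the medium. In serum 5830 of the 11031 models (52.9%) were called, 2862 higher and 2968 lower, the background for the overlaps that follow. The median absolute log2 change was 0.80 there against 0.41 in 2i. Of the 1514 models higher in 2i, 1110 (73.3%) were also higher in serum and 78 were lower there, and these 1110 made up 38.8% of those higher in serum. Of the 1280 lower in 2i, 942 (73.6%) were also lower in serum and 35 higher, and they made up 31.7% of those lower in serum. Across the 11031 models, which are not independent replicates, the log2 changes correlated at 0.58. Without ES 2i replicate 1 the shared calls fell to 569 higher and 576 lower, without iPS 2i replicate 1 to 701 and 403, and without iPS 2i replicate 2 the shared higher calls fell to 729.

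The models with large differences in serum were followed in 2i. Of 1857 models at least 2-fold higher in serum, 789 were higher in 2i, and their median log2 change was 1.76 in serum and 0.60 in 2i. Of 1976 at least 2-fold lower in serum, 665 were lower in 2i, with medians of -1.58 and -0.43. The models were chosen for their size in serum, which favours a smaller change in 2i, so these values are a description only.

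The difference of the 2 differences, tested in the same fit, was called for 3011 models (27.3%) over all models tested. Without serum iPS replicate 1 the 3011 became 2003. Serum ES replicate 2 was shallow, with 3729837 assigned reads, and without it 3174 were called. Wdfy4 had 0.112 and 0 CPM in ES and 247 and 221 CPM in iPS cells in serum, against 3.38 and 2.40 CPM and 20.9 and 21.5 CPM in 2i, a difference of log2 changes of -8.22 ± 0.49 (SE, adjusted p = 2.73e-13) whose size rests on serum ES libraries with at most a few reads. Zic2, a zinc finger factor of epiblast and neural tissue, had 10.6 and 12.4 CPM in ES and 174 and 144 CPM in iPS cells in serum and fell in 2i from 62.7 and 65 CPM to 42.2 and 47.8 CPM, a difference of -4.33 ± 0.22 (SE, adjusted p = 5.38e-15). Zic2 was higher in iPS than in ES libraries in serum and lower in 2i, the latter call being lost without ES 2i replicate 2 or iPS 2i replicate 1.

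Fabp3, a fatty acid binding protein, was 1 of the genes that were low in serum iPS cells and level in 2i. It had 320.4 and 370.3 CPM in ES and 15.1 and 14.1 CPM in iPS cells in serum, and 150.0 and 173 CPM and 192 and 158 CPM in 2i, a difference of 4.68 ± 0.21 (SE, adjusted p = 4.33e-16). Hydin, a gene of the axoneme of motile cilia, Gcnt2, Gm4934, Ankrd45 and 1190002H23Rik were also lower in iPS than in ES cells in serum, with differences of 3.98 to 4.54. They were not all level in 2i. There Hydin (log2 change -0.46) and Gcnt2 (0.08) were not called, 1190002H23Rik (0.99) and Gm4934 (0.63) were higher, and Ankrd45 (-0.63) was lower. The calls of Gm4934 and Ankrd45 in 2i were not kept in every alternative run. Tcfcp2l1 was among the naive genes whose fall was smaller in 2i: 1381 and 1261 CPM in ES against 41.2 and 72.2 CPM in iPS cells in serum, a log2 change of -4.53 there and -1.14 in 2i. Of the 13 naive genes 11 had a called difference between media, where 30.2% of all symbols did, and their median was -1.76 in serum and -0.48 in 2i. For Crabp2 the change was 4.39 in serum and 4.30 in 2i, and for Meg3 -4.51 and -4.52, and neither difference between media passed the test (adjusted p = 0.81 and 1.00).

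**Figure D5:**
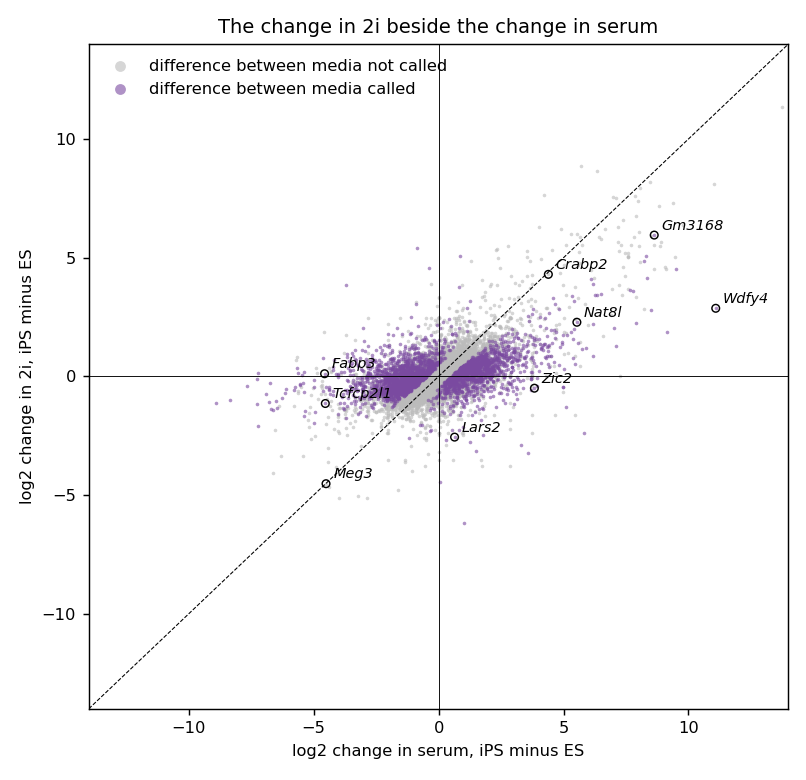
Log2 change of iPS minus ES cells in serum (x axis) and in 2i (y axis) for each of the 11031 tested models, purple where the difference between the media was called (3011 models); the dashed line marks equal change. Crabp2 and Meg3 lie on the line, and Zic2, Fabp3 and Tcfcp2l1 lie far from it, close to the horizontal axis.

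The genes that set NPC apart from ES cells in serum were followed in 2i, again with no shared library. In NPC 2366 models were at least 2-fold higher (21.4% of all tested), and of these 524 (22.1%) were higher and 70 (2.96%) lower in iPS 2i than in ES 2i cells, with a median log2 change of 0.30, where 13.7% and 11.6% of all tested models were. Of 2891 at least 2-fold lower in NPC (26.2%), 670 (23.2%) were lower and 318 (11%) higher, with a median of -0.20. Without ES 2i replicate 1, iPS 2i replicate 1 and iPS 2i replicate 2 the 524 became 270, 332 and 312, and without iPS 2i replicate 1 the 670 became 326. Well-expressed genes high in NPC and at least 2-fold higher in iPS 2i included Lgals1, a galectin (121 and 129 CPM to 485 and 406 CPM, NPC 4491 and 5007 CPM), the neuronal tubulin gene Tuba1a (663 and 762 CPM to 1552 and 1400.0 CPM, NPC 5585 and 5843 CPM), the LIM protein gene Crip2 (53.2 and 62.1 CPM to 207 and 200.0 CPM) and the cystatin gene Cst3 (67.9 and 78.0 CPM to 184 and 170.0 CPM). Ptprv and Phlda3, described above, met the same rule. Tuba1a and its tubulin relatives share sequence, so its reads may be split between copies. The small-RNA models Mir715 (2729 and 3389 CPM to 8004 and 7301 CPM) and Rprl3 (1342 and 1519 CPM to 3779 and 3020.0 CPM) also met it. Mir715 was read as a model of the counted RNA, not as a mature microRNA, and the source of its reads was not tested. Serum ES replicates differed in both models, at 2320 and 4656 CPM for Mir715 and 1105 and 2784 CPM for Rprl3.

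Genes higher in iPS 2i cells were shorter on the genome than those lower. The median span of the model was 9.51 kb for the 1436 symbols called higher, 25.1 kb for the 1146 called lower and 14.8 kb over all 9372 symbols tested. Promoter GC content did not show such a gap, with medians of 61.7%, 62.0% and 61.7%. The iPS 2i libraries were also the shallower and held iPS 2i replicate 1, with its 65% of reads in no model, and the part of this in the order of spans was not tested.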

How the data were processed

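The RNA was total RNA depleted of ribosomal RNA and sequenced as stranded paired-end libraries, per the labels' protocols. The deposited values were whole-number read counts for 55419 transcript models, with 92 spike-in entries and 5 summary entries that were kept out of library sizes. Per the submitters' processing notes, TopHat2 (version 2.1.0), HTSeq and mm9 were used; how HTSeq resolved overlaps and strand is not given in the sources used here. Reads overlapping several models of a gene may have been left as ambiguous, which lowers the counts of genes with several models. The authors' deposited log2 table was used only for symbols and positions, which it pairs with 11767 models and 10334 symbols.

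Counts of all 10 RNA libraries were fitted by group with edgeR 4.0.16 (R 4.3.3, limma 3.58.1), with TMM factors, its default low-count filter, the quasi-likelihood F test (5 residual degrees of freedom) and Benjamini-Hochberg adjustment over 11031 tested models, of which 10355 had a symbol. The other 44388 models had counts too low to test. The standard error was derived from the fold change and F. A gene with several models was read by the model with the highest mean level. CPM are counts scaled to the TMM-adjusted library size, and a count of 0 was set against a floor of 3 counts per library. Intervals cover counting error only. The script was tested on simulated counts.

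Genes were named by a rule: the 12 largest changes each way at a mean log2 CPM of at least 3 without overlap, up to 4 members of each list by adjusted p with its defining members, the 6 largest differences between media each way at the same limit on level, and the 8 most abundant genes at least 2-fold higher in both NPC and iPS 2i. A few genes that this rule names are not reported here. The members, lists and rule were chosen with earlier results of these data known. Alternatives were other factors, filters, DESeq2 1.42.0, other sample sets, a replicate block and leaving out each library. Upper-quartile factors and a fit without the shallowest NPC library were chosen after seeing the data. Promoters of 300 bases came from a RefSeq table of GRCm38.p6, matched by symbol for 5921 of 9372 symbols, and no coordinates were converted between builds.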

Additional observations from a re-analysis of the deposited data

Results flagged for a closer look

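The change from ES to iPS cells differed between 2i and serum in 3011 models, by the test of the difference of the 2 log2 changes in edgeR's quasi-likelihood fit. Negative values below mean a change more negative in 2i than in serum, and every gene named here passed this test. Among the reprogramming factors and neural genes the differences were -1.92 for Klf4, -0.87 for Pou5f1, 1.45 for Sox2, 1.06 for Olig1 and 1.79 for Olig2. Klf4 had 83.7 and 95.1 CPM in ES and 358 and 279.7 CPM in iPS cells in serum, Pou5f1 1159.7 and 1117 CPM and 3898 and 2913 CPM, and Sox2 477 and 576 CPM and 111 and 117 CPM.

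The ranks that follow hold among genes with a mean log2 CPM of at least 3 in 2i, and some genes at lower levels had larger differences. The largest positive differences at that limit were 4.68 for Fabp3, 4.54 for Hydin, 4.46 for 1190002H23Rik, 4.21 for Gm4934, 4.10 for Gcnt2 and 3.98 for Ankrd45. The most negative at that limit were -8.22 for Wdfy4, -4.49 for GU332589, -4.33 for Zic2, -3.33 for Rassf2, -3.25 for Nat8l and -3.20 for Lars2. The value for Lars2 was 0.22, and no longer past the threshold, without ES 2i replicate 1. Lars2 also varied between serum replicates, at 265 and 2452 CPM in ES and 3603 and 608 CPM in iPS cells.

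Of the genes with large increases in 2i, the rise was smaller than in serum for Gm3168 (-2.68), Ptprv (-2.81), Klk1 (-2.00), Fam174b (-1.77), Gcnt3 (-1.28), Arhgap31 (-1.11), Crip1 (-1.04) and Lama4 (-0.93), and larger for Ahnak2 (1.75). Of those with large decreases, the difference was 2.46 for Sgk1, 1.96 for St8sia1, 1.62 for Ly75, 1.28 for Lama1, -1.94 for Rpph1, -1.43 for nssr 1 and -1.27 for Prss35. Eif2s3y, on the Y chromosome, differed by 1.78, with 6.23 and 6.32 CPM in ES and 2.47 and 3.23 CPM in iPS cells in serum. The cause of these differences was not tested.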

How the results depend on the processing

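The alternatives that keep all 4 libraries in 2i left each of the 8 counts of calls within 1.5 times its value, with these exceptions. DESeq2 called 831 models lower and 627 at least 2-fold different, and a filter at a mean of at least 10 CPM left 264 at least 2-fold different. Without serum iPS replicate 1, 2003 models had a called difference between media. Leaving out 1 library at a time gave 742 to 1374 models higher, 561 to 1279 lower, 651 to 1146 at least 2-fold different and 2003 to 3174 with a difference between media. It gave 569 to 1006 higher in both media, 403 to 925 lower in both, 270 to 456 high in NPC and higher in iPS 2i, and 326 to 670 low in NPC and lower in iPS 2i. Of 159 named genes 144 were called, 92 of these kept the call in every alternative run and 52 lost it in at least 1. Values whose sign turned without 1 library were those of Fabp3 (range -0.040 to 0.21, negative without ES 2i replicate 1 or iPS 2i replicate 1), of Gcnt2 (-0.30 to 0.30, negative without ES 2i replicate 2 or iPS 2i replicate 2), neither gene being called in 2i, and of Lars2 (-3.54 to 0.81 in 2i and -5.47 to 0.22 for its difference between media, both positive without ES 2i replicate 1). The cause was not tested, except that such fits hold fewer samples. Higher calls made up 54.2% of calls, 44.0% without a low-count filter and 60.7% with DESeq2.

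Replicate numbers are not stated to mark a shared batch. The differences between replicates correlated at -0.0711 between ES 2i and iPS 2i, which cannot show whether equal numbers were handled together. A replicate block called 1462 models higher, 1235 lower, 924 at least 2-fold different and 2937 with a difference between media. The iPS 2i libraries, at 4903010 and 9622117 assigned reads, limit what can be called among weakly expressed genes.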
